A study of Mus musculus with 9 samples.

Results

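Small leucine-rich proteoglycans (SLRPs) are secreted proteins built from leucine-rich repeats, and 9 of their genes that are known from tendon, Dcn, Bgn, Aspn, Fmod, Lum, Kera, Ogn, Prelp and Omd, were followed through the formation of the mouse forelimb tendons. The members were all probe sets annotated to these 9 symbols. They are 9 of the 18193 genes on the array that had a probe set with a single symbol, and 20 of the 34945 such probe sets.

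The cells came from forelimbs of mouse embryos with an Scx-GFP reporter, whose green fluorescence marks cells that express the tendon transcription factor gene Scx. The 3 groups were GFP-positive cells of embryos aged E11.5, E12.5 or E14.5, in days after conception, each on 3 Affymetrix Mouse Genome 430 2.0 arrays named A, B and C, and 9 arrays in all. All 3 groups carry the reporter and went through trypsin dissociation and a sort for GFP, and GFP-negative cells were not analysed here, so every level describes the cells that the reporter selects. The labels name 2 cell sorters without saying which sample went to which, and whether replicate arrays stand for different litters is not stated. The p-values therefore measure only the spread between these samples.

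SLRPs bind collagen fibrils in the extracellular matrix and help to set fibril diameter and spacing. Several carry chondroitin, dermatan or keratan sulfate chains, others carry none, and some also bind growth factors and their receptors. In tendon they are found between and on the surface of collagen I fibrils, and mice that lack decorin, biglycan, fibromodulin or lumican have irregular fibrils.

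Tendon markers were present in the sorted cells. Scx itself had signals of 14811 to 21828 at E11.5, 16101 to 17214 at E12.5 and 8692 to 14953 at E14.5. It was called lower at E14.5 against E11.5, with a log2 change of -0.81 ± 0.22 (SE, limma adjusted p = 0.0164). Tnmd, which encodes the tendon membrane protein tenomodulin, had signals of 7.80 to 42.0 at E11.5, 30.9 to 163 at E12.5 and 6005 to 9398 at E14.5, so this marker of differentiated tendon cells was low on the arrays of the earlier stages. The other tested tendon markers, Tnmd (8.15), Thbs4 (4.55), Egr1 (2.64) and Mkx (2.01), were called higher at E14.5 against E11.5. Egr1 differed widely between the E11.5 arrays, with 15290, 1004 and 2213 in A, B and C. Tnmd was tested through E12.5 and E14.5 arrays alone, so a rise was built in. Over all tested genes 22.9% were called higher and 17.7% lower in that comparison, the shares to set beside each marker count here. Markers of other cells were also measured. All 10 cartilage markers had signals above the filter level of 90.6 in at least 3 arrays, with a summed signal of 15672 to 18699 at E11.5, 24558 to 30098 at E12.5 and 8398 to 72936 at E14.5. Skeletal muscle markers summed to 3670 to 6116 at E11.5, 5720 to 9923 at E12.5 and 8405 to 11842 at E14.5, and 5 of 8 tested were called higher at E14.5 against E11.5 (limma, adjusted p under 0.05). Pax7, among these 5, passed the filter through E12.5 and E14.5 arrays alone. Connective tissue markers summed to 11944 to 14851 at E11.5, 14233 to 16352 at E12.5 and 17933 to 22392 at E14.5, and 3 of 6 tested were called higher at E14.5 against E11.5. Most of that sum came from Pdgfra and Tcf7l2, which were not called. The fibroblast marker Dpt had signals of 3.59 to 33.3 at E11.5, 21.3 to 45.1 at E12.5 and 1872 to 2582 at E14.5. Cd34, another such marker, had 26.3 to 47.5, 85.2 to 129.7 and 1409 to 1481 at the same stages. They rose by 6.34 ± 0.28 (SE, limma adjusted p = 9.9e-07) and 5.32 ± 0.23 (adjusted p = 9.6e-07) at E14.5 against E11.5. Dpt passed the filter through its E14.5 arrays alone and Cd34 through E12.5 and E14.5 arrays alone. A rise was thus built into their being tested, and both are among the 3 called. Their part in the changes of the members was not tested. All 4 tested endothelium markers were called higher at E14.5 against E11.5, beside 22.9% of all tested genes. Tek was at 320 to 735 at E14.5 and 46.9 to 55.6 at E11.5. Cdh5, Tek and Emcn passed the filter through E12.5 and E14.5 arrays alone, so a rise was built into their being tested. Pecam1 and Tie1 stayed below the filter level in every array and were not tested. Both tested epidermis markers, Krt5 and Epcam, were also called higher, by 1.15 and 0.64, while Krt14 and Trp63 stayed below that level, as did Ptprc and Hba-a1 of blood.

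Of the 9 genes, 8 lie in 3 neighbourhoods of the genome. In the RefSeq annotation of build GRCm38.p6, the protein-coding genes Ecm2, Aspn, Omd and Ogn follow each other on chromosome 13, Dcn, Lum, Kera and Epyc on chromosome 10, and Optc, Prelp and Fmod on chromosome 1. Bgn lies on chromosome X between Haus7 and Atp2b3. The windows of 250 bases upstream of the annotated start are shown for 4 of them, because they pair the members with the largest and a much smaller rise on chromosome 13 (Aspn, Ogn, and Omd between them) with a member of another neighbourhood (Fmod). Scleraxis belongs to a family of transcription factors that bind E-boxes, whose letters are CANNTG on both strands. Capitals mark each E-box. All 4 windows are from RefSeq, read 5′ to 3′ on the plus strand of GRCm38.p6: Aspn at chr13:49544193-49544442, Omd at chr13:49582212-49582461, Ogn at chr13:49607765-49608014 and Fmod at chr1:134037004-134037253.
Aspn: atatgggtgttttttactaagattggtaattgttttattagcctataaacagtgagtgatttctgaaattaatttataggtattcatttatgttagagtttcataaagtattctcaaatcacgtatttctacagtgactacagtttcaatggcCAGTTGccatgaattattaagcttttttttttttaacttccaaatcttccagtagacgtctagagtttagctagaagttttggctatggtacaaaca
Omd: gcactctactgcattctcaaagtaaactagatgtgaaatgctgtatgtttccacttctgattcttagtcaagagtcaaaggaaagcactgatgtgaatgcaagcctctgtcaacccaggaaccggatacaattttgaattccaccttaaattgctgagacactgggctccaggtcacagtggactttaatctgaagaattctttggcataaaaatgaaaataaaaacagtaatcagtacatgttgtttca
Ogn: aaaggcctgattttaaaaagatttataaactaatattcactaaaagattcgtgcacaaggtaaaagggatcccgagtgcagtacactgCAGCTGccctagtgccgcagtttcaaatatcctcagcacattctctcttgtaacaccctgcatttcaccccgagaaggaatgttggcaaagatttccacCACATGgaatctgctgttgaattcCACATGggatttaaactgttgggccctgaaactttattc
Fmod: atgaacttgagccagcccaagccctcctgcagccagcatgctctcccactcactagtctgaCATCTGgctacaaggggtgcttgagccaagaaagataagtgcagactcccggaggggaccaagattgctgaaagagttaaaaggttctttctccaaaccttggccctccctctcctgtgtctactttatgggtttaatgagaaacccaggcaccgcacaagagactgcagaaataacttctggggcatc

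The first base of the E-box lay 97 bases before the start in Aspn and 189 bases before it in Fmod. Ogn had 3 E-boxes, at 162, 63 and 39 bases. Bgn, not shown, had 1 at 102 bases, and the windows of Omd, Kera and Prelp held none of these letters, although those listed for Kera and Prelp do not end at the annotated start of the gene. An E-box was found for 4 of 7 members with a listed window, against 66.2% of 32851 mouse promoters of the same length, which had a median of 1 each. The share of G and C was 30% in Aspn, 38.4% in Omd, 42% in Ogn, 42.4% in Kera, 51.2% in Fmod, 55.6% in Prelp and 64.4% in Bgn, beside a median of 52.4% over all promoters (quartiles 45.2% and 61.2%). The windows of Aspn, Omd, Ogn and Kera thus lay below the lower quartile and that of Bgn above the upper one. A match to the letters is a description and not a binding site.

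The measurements below are MAS5 signals on a linear scale that the authors had scaled to the same trimmed mean on each array. Each gene is represented by its brightest probe set on the log2 scale, averaged over all arrays, with those ending in _x_at used only where a gene has no other. Levels of different genes are not compared, since each probe set has its own response. Tests were made with limma on log2 signals with a floor of 22.7, for genes whose signal passed 90.6 in at least 3 of 9 arrays. All adjusted p-values are limma's with Benjamini-Hochberg adjustment over 11575 genes, and a change is called where that value is under 0.05. Omd passed the filter level in only 2 arrays and was not tested with the others. Its values come from a fit of all 18193 genes with no filter.

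In the probe set that represents each gene, all 9 genes had higher signals with each later stage. No array of a later stage lay below an array of the preceding one there. The dim other probe sets of Dcn and Prelp overlapped between E11.5 and E12.5. The share of all genes that separate in this way was not counted, so this is a description of the members only. At E14.5 against E11.5, 8 of 8 tested members were called higher, as were 22.9% of all tested genes. At E12.5 against E11.5, 6 of 8 were called higher, beside 3.11% of all genes. At E14.5 against E12.5, it was 7 of 8, beside 12.6%. Over all 9 genes the median log2 change was 4.0 at E14.5 against E11.5, 1.67 at E12.5 against E11.5 and 2.33 at E14.5 against E12.5, while the medians over all 18193 genes were 0.00, 0.01 and 0.00. In sorted cells measured in bulk, a larger share of cells that express a gene and more RNA of it per cell cannot be told apart. Aspn passed the filter through E12.5 and E14.5 arrays alone, and so did Prelp, so a rise was built into their being tested, and the counts over tested members are given as descriptions. In a fit with no filter, the count at E12.5 against E11.5 was 3, because Fmod (adjusted p = 0.1022), Lum (0.0682) and Kera (0.0505) were no longer called.

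**Figure D1:**
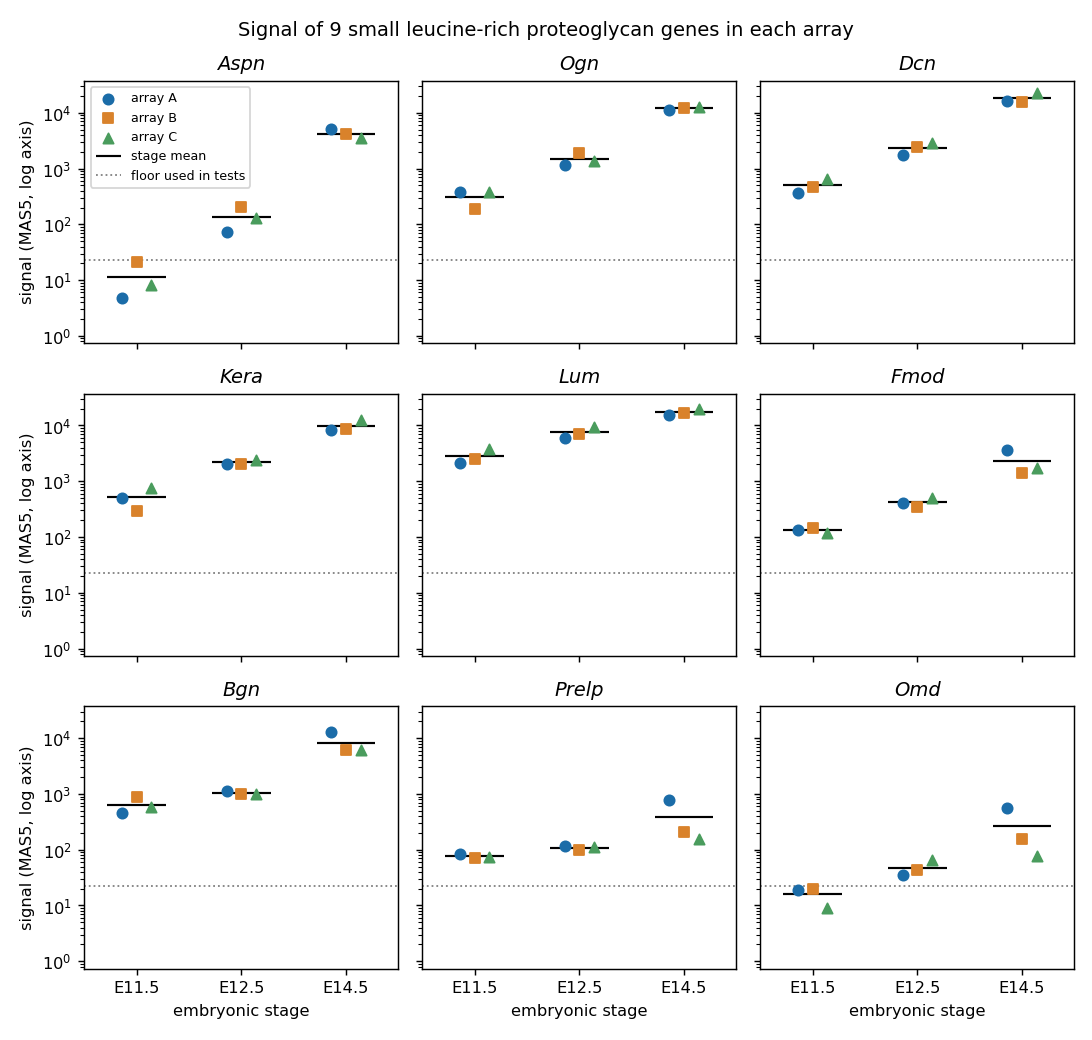
MAS5 signal (log axis) of the 9 genes by embryonic stage, one panel per gene, with a point for each of arrays A, B and C, a bar at the stage mean and a dotted line at the floor of 22.7. In every panel the arrays of a later stage lie above those of the stage before it, and at E14.5 array A stands above the others for Fmod, Bgn, Prelp and Omd.

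Decorin, biglycan and asporin form one class of the family by sequence. Decorin, encoded by Dcn, binds collagen I, carries a single chondroitin or dermatan sulfate chain and holds transforming growth factor beta. Its signals in arrays A, B and C were 372, 470.3 and 650.3 at E11.5, 1784, 2467 and 2838 at E12.5, and 16021, 15879.8 and 22692 at E14.5. The mean was 497.5 ± 141 at E11.5, 2363 ± 535 at E12.5 and 18197 ± 3893 at E14.5 (SD, n = 3 each). The stages were well separated, with the lowest E14.5 array above the highest E12.5 array by more than the whole range within either stage. With ± SE here and below, the log2 change was 5.21 ± 0.25 (adjusted p = 1.3e-06) at E14.5 against E11.5, a 37.0-fold difference. It was 2.26 ± 0.25 (adjusted p = 0.0031) at E12.5 against E11.5 and 2.95 ± 0.25 (adjusted p = 9.0e-05) at E14.5 against E12.5. Another probe set for Dcn was dim, at 1.82 to 5.95 on the E11.5 arrays, 3.70 to 40.7 at E12.5 and 47.3 to 331 at E14.5, and was not tested. When the probe sets of a gene were averaged, this one lowered the change of Dcn to 3.85 at E14.5 against E11.5, and at E12.5 against E11.5 to 1.27 with no call (adjusted p = 0.1278).

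Biglycan, the closest relative of decorin, carries a pair of glycosaminoglycan chains and is found in bone and cartilage as well as tendon. Bgn signals were 454, 871 and 578 at E11.5, 1153, 1001 and 1017 at E12.5, and 12672, 6229 and 6055 at E14.5. Array A stood above the other E14.5 arrays, at 2.06 times their mean. E12.5 and E11.5 were barely separated, since the gap between the lowest E12.5 array (1001) and the highest E11.5 array (871) was smaller than the range within either stage. The log2 change of 0.79 ± 0.31 at E12.5 against E11.5 was not called (adjusted p = 0.2459, interval 0.09 to 1.48). Bgn rose by 2.89 ± 0.31 (adjusted p = 3.0e-04) at E14.5 against E12.5 and by 3.68 ± 0.31 (adjusted p = 2.5e-05) at E14.5 against E11.5. Without E14.5 A, the change at E14.5 against E11.5 was 3.33 (adjusted p = 4.2e-05). The 3 probe sets of Bgn gave changes of 3.68 to 4.36 in that comparison.

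Asporin belongs to the same class but lacks a glycosaminoglycan chain, and it binds collagen and growth factors of the transforming growth factor beta family. The E11.5 signals of Aspn were 4.85, 20.9 and 8.24, all below the floor. They were 71.6, 205 and 129.6 at E12.5 and 5037, 4102 and 3585 at E14.5. The stages were far apart, and each E14.5 array was far above every E12.5 array. The log2 change was 7.53 ± 0.32 (adjusted p = 9.6e-07) at E14.5 against E11.5 and 5.08 ± 0.32 (adjusted p = 2.0e-05) at E14.5 against E12.5. At E12.5 against E11.5 it was 2.45 ± 0.32 (adjusted p = 0.0051). Changes against E11.5 are measured from the floor. With the floor raised to the median signal, the change was 5.54 at E14.5 against E11.5 and 0.56 with no call (adjusted p = 0.3240) at E12.5 against E11.5. With no floor it was 8.63 at E14.5 against E11.5.

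Fibromodulin, lumican, keratocan, PRELP and osteomodulin form the second class. Fibromodulin and lumican share a binding site region on collagen I, and fibromodulin bears sulfated tyrosines at its amino end. Fmod signals were 134, 147 and 117 at E11.5, 410.2, 349.9 and 511 at E12.5, and 3702, 1429.97 and 1758 at E14.5. Array A was again the highest at E14.5, at 2.32 times the mean of B and C. Fmod rose by 4.0 ± 0.31 (adjusted p = 1.7e-05) at E14.5 against E11.5 and by 2.33 ± 0.31 (adjusted p = 0.0011) at E14.5 against E12.5. Without E14.5 A, the change against E11.5 was 3.59 (adjusted p = 1.1e-05). The rise of 1.67 ± 0.31 at E12.5 against E11.5 (adjusted p = 0.0234) lost its call when any 1 of the 6 arrays of these stages was left out, with adjusted p-values of 0.0590 to 0.0981. All 6 probe sets of Fmod were called higher at E14.5 against E11.5, with log2 changes of 4.0 to 5.08. The one that represents Fmod had the smallest of these changes, and a brighter one ending in _x_at gave 4.63.

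Lumican, best known for the spacing of fibrils in the cornea, is encoded by Lum, whose signals were 2110.5, 2472 and 3852 at E11.5, 6044, 7149.7 and 9372 at E12.5, and 15368, 17031 and 19524 at E14.5. The mean for Lum was 2811 ± 919 at E11.5, 7522 ± 1695 at E12.5 and 17308 ± 2092 at E14.5 (SD, n = 3 each). Array C was the highest at each stage and array A the lowest, and the stages did not overlap. The median signal over all probe sets followed the same order of letters at each stage. Lum rose by 2.66 ± 0.24 (adjusted p = 3.9e-05) at E14.5 against E11.5, by 1.44 ± 0.24 (adjusted p = 0.0140) at E12.5 against E11.5 and by 1.22 ± 0.24 (adjusted p = 0.0074) at E14.5 against E12.5. Without E11.5 B, E12.5 B or E12.5 C, the change at E12.5 against E11.5 was no longer called (adjusted p = 0.0530 to 0.0610).

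Keratocan is a keratan sulfate proteoglycan of the cornea that is also made in tendon. Kera signals were 511, 288 and 765 at E11.5, 2074, 2078 and 2406 at E12.5, and 8293, 8736 and 12502 at E14.5. The E11.5 arrays spread more widely on the log scale than the later ones. Array C was the highest at each stage, as it was in the median signal over all probe sets. Kera rose by 4.33 ± 0.31 (adjusted p = 1.1e-05) at E14.5 against E11.5. The rise was split almost evenly, with 2.18 ± 0.31 (adjusted p = 0.0075) at E12.5 against E11.5 and 2.15 ± 0.31 (adjusted p = 0.0016) at E14.5 against E12.5. Without the A arrays of all 3 stages, the call at E12.5 against E11.5 was lost (adjusted p = 0.0511).

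PRELP has a basic amino end that binds heparan sulfate and, like asporin, no glycosaminoglycan chain of its own, and it is abundant in cartilage. Prelp had signals of 82.5, 71.6 and 75 at E11.5, 115, 99.2 and 112 at E12.5, and 791, 207 and 157 at E14.5. The E11.5 and E12.5 arrays lay close together within each stage, while E14.5 A was 4.35 times the mean of the other E14.5 arrays. Prelp rose by 1.95 ± 0.48 (adjusted p = 0.0104) at E14.5 against E11.5. Neither shorter interval was called, with 0.51 ± 0.48 (adjusted p = 0.6750) at E12.5 against E11.5 and 1.44 ± 0.48 (adjusted p = 0.0596) at E14.5 against E12.5. Without E14.5 A the change at E14.5 against E11.5 was 1.24 (adjusted p = 7.9e-04), and the smaller change of 0.73 at E14.5 against E12.5 was called (adjusted p = 0.0203). With the array letters as a replicate block, 1.44 was also called at E14.5 against E12.5 (adjusted p = 0.0391). The other probe set was at or below 5.23 on all E11.5 and E12.5 arrays and at 168, 21.6 and 5.88 on the E14.5 arrays, and it was not tested.

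Osteomodulin, also called osteoadherin, carries keratan sulfate and is known from mineralized tissues. Omd signals were 18.9, 19.6 and 8.94 at E11.5, all below the floor, 35.7, 43.4 and 64.9 at E12.5, and 554, 154 and 78.1 at E14.5. E14.5 A was 4.78 times the mean of the other E14.5 arrays, and E14.5 C stayed below the filter level. In the fit with no filter the log2 change was 3.05 ± 0.67 (adjusted p = 0.0170) at E14.5 against E11.5, 1.04 ± 0.67 (adjusted p = 0.6385) at E12.5 against E11.5 and 2.02 ± 0.67 (adjusted p = 0.1053) at E14.5 against E12.5. Without E14.5 A it was 2.27 (adjusted p = 0.0102) at E14.5 against E11.5. With the floor at the median signal it was 1.13 and not called (adjusted p = 0.3047).

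Osteoglycin, also called mimecan, is the one member of the third class studied here and lies beside Omd on chromosome 13. Ogn signals were 383, 185 and 375 at E11.5, 1183, 1873 and 1362 at E12.5, and 11189.8, 12264 and 12842 at E14.5. The E14.5 arrays lay closer together than those of any other member, with an SD of 0.10 in log2. Ogn rose by 5.34 ± 0.28 (adjusted p = 1.9e-06) at E14.5 against E11.5, by 2.28 ± 0.28 (adjusted p = 0.0043) at E12.5 against E11.5 and by 3.06 ± 0.28 (adjusted p = 1.4e-04) at E14.5 against E12.5. Its other probe set gave 5.27 at E14.5 against E11.5, and with this one in its place the rise at E12.5 against E11.5 was not called (adjusted p = 0.0587).

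In a fit of 20885 probe sets that passed the filter, 17 of the 20 member probe sets could be tested, and all 17 were called higher at E14.5 against E11.5, beside 17.3% of all those probe sets. Those not tested were the dim probe sets of Dcn and Prelp and the single one of Omd. Several probe sets of a gene read the same transcripts and are not replicates.

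**Figure D2:**
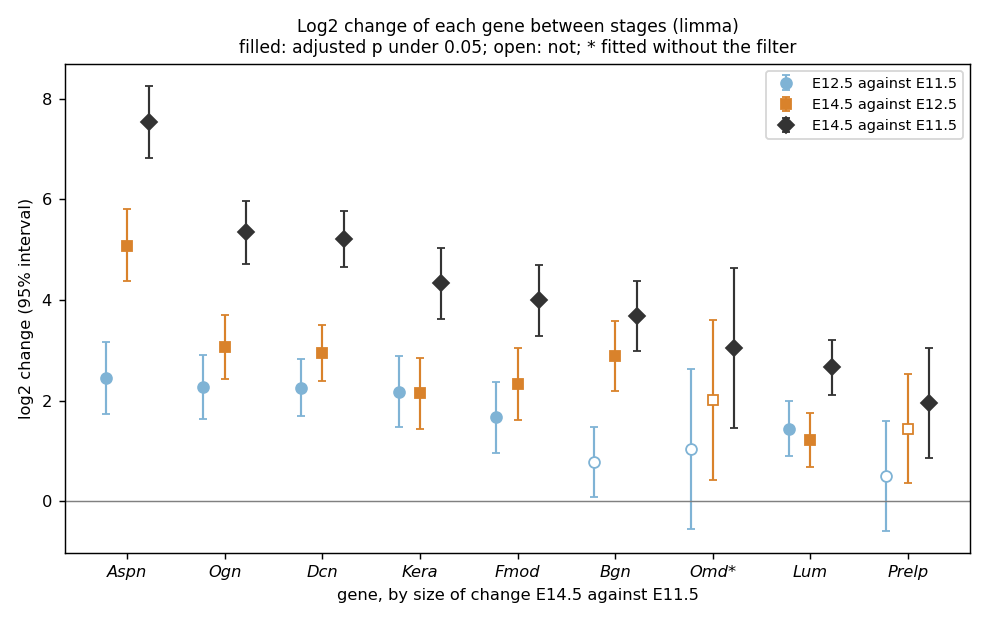
Log2 change of each gene with its 95% interval for the 3 comparisons of stages, with genes from left to right by the size of the change at E14.5 against E11.5. Filled points are called at an adjusted p under 0.05, open points are not, and Omd was fitted with no filter. Changes at E14.5 against E11.5 range from 1.95 for Prelp to 7.53 for Aspn, and the open points are those of Bgn, Omd and Prelp at E12.5 against E11.5 and of Omd and Prelp at E14.5 against E12.5.

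By size of change at E14.5 against E11.5 the order was Aspn, Ogn, Dcn, Kera, Fmod, Bgn, Omd, Lum and Prelp. The difference between neighbours was taken from the ratio of the genes within each array, with a 95% interval. Dcn exceeded Kera by 0.89 (0.11 to 1.66), but with the mean of all probe sets of a gene Dcn (3.85) fell below Kera (4.33), and the order was Aspn, Ogn, Fmod, Kera, Bgn, Dcn and Lum. The lead of Aspn over Ogn depends on the floor, since Aspn was below it in all E11.5 arrays: it was 2.19 (1.24 to 3.15) with the floor used here, 0.20 (-0.66 to 1.05) with the floor at the median signal and 3.30 (1.40 to 5.20) with no floor. The other neighbours could not be separated: Ogn minus Dcn was 0.13 (-0.81 to 1.07), Kera minus Fmod 0.33 (-1.13 to 1.79), Fmod minus Bgn 0.32 (-0.31 to 0.94), and Bgn minus Omd 0.62 (-0.68 to 1.93). For Omd minus Lum it was 0.39 (-1.54 to 2.32) and for Lum minus Prelp 0.71 (-1.06 to 2.48). Of all 36 pairs, 24 had an interval without 0 and 12 had one with it, with no adjustment over the pairs, and those with Aspn or Omd rest on the floor. Without E11.5 B, Dcn stood above Ogn and Fmod above Kera. With each gene's lowest probe set, Fmod (5.08) and Bgn (4.36) stood above Kera (4.33).

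The members differed in how much of the log2 change had taken place by E12.5. It was 54.2% for Lum and 50.3% for Kera, 43.4% for Dcn, 42.6% for Ogn and 41.7% for Fmod, but 26.0% for Prelp and 21.4% for Bgn. Without E14.5 A the share of Prelp was 40.9%, and with the floor at the median signal it was 15.1%. For Aspn and Omd, which were at the floor at E11.5, the share is set by that floor. It was 32.5% for Aspn here, 10.2% with the floor at the median signal and 41.3% with no floor, and for Omd 34.0% here and 45.6% without E14.5 A. Since the first interval is 1 day and the second 2 days, the change per day is the fairer measure. Lum gained 0.61 log2 units per day after E12.5 and 1.44 before it, Kera 1.07 and 2.18, Dcn 1.48 and 2.26, Ogn 1.53 and 2.28, and Fmod 1.16 and 1.67. Aspn had 2.54 after and 2.45 before and Omd 1.01 and 1.04, while Bgn had 1.44 after and 0.79 before and Prelp 0.72 and 0.51. Without E14.5 A the order turned for Prelp, with 0.37 after and 0.51 before, and Omd had 0.62 and 1.04. None of these differences in rate was called by limma (0 of 8 tested members, beside 0.207% of all genes). At an unadjusted limma p under 0.05 there were 3, Kera (-1.10), Lum (-0.83) and Dcn (-0.78), all with a smaller change per day after E12.5, beside 7.81% of all tested genes. With the floor at the median signal, 1 member was called, Aspn, with a larger change per day after E12.5. That floor lies above its E12.5 A signal as well as its E11.5 signals. With no floor the order turned for Aspn, with 2.54 after and 3.56 before. Without the A arrays of all 3 stages it had 2.28 after and 2.85 before.

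Array A of E14.5 divided the members. Its ratio to the mean of B and C was 4.78 for Omd, 4.35 for Prelp, 2.32 for Fmod, 2.06 for Bgn and 1.31 for Aspn, against 0.891 for Ogn, 0.841 for Lum, 0.831 for Dcn and 0.781 for Kera. The same array had the highest sum of the 10 cartilage markers, 72936 in A, 17708 in B and 8398 in C, a ratio of 5.59. Of these 10 markers, 6 were called higher at E14.5 against E11.5 and 0 lower, beside 22.9% and 17.7% of all tested genes. Hapln1 and Cytl1, among the 6, passed the filter through E12.5 and E14.5 arrays alone. Sox9 (-1.01, adjusted p = 0.0766), Col9a1 (-0.25), Col2a1 (0.45) and Snorc (2.45) were not called. In E14.5 C the signals of Sox9 (582), Col2a1 (3538) and Col9a1 (2600) lay below those of every E11.5 array. In E14.5 A, Col2a1 (21311) and Col9a1 (20584) lay above them and Sox9 (2435) among them. Bone markers summed to 1885, 1066 and 299, a ratio of 2.76, with a probe set for 3 of 6 of these markers. The summed tendon markers had a ratio of 1.14. Egr1 was the largest part of that sum, with 24733, 20231 and 16610 in A, B and C. Egr1, Tnmd and Thbs4 were highest in A, while Scx and Mkx were highest in C. Connective tissue markers had a ratio of 0.836, with 17933, 20526 and 22392 in A, B and C. The ratio was 1.31 for skeletal muscle, 1.30 for nerve, 1.12 for epidermis, 1.02 for blood and 0.751 for endothelium markers. Cartilage markers moved with E14.5 A in the same direction as Omd, Prelp, Fmod and Bgn, but this shared direction rests on array A. From B to C the cartilage sum fell, as did Omd (154 to 78.1) and Prelp (207 to 157). Fmod rose there (1430 to 1758) and Bgn hardly changed (6229 to 6055). The part of the cartilage markers in these results was not tested.

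**Figure D3:**
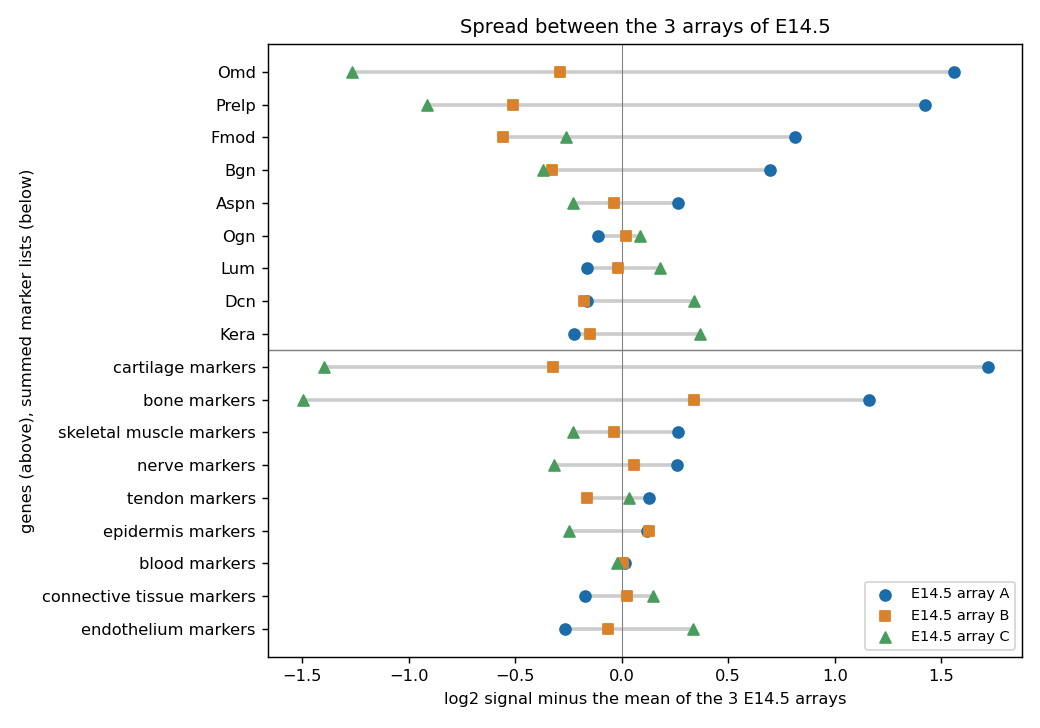
Log2 signal of arrays A, B and C of E14.5, each minus the mean of the 3, for the 9 genes (above the line) and for the summed signals of 9 marker lists (below it). Array A lies far to the right for Omd, Prelp, Fmod and Bgn and for cartilage and bone markers, and slightly to the left for Ogn, Lum, Dcn, Kera and connective tissue markers.

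Across all 9 arrays, the genes whose log2 signal was most like that of each member are given as a description, with Pearson's r over arrays that share 3 stages. For Dcn these were Fstl1 (0.998), a secreted follistatin-like protein, and Scara5 (0.997). For Aspn they were Jcad (0.996) and Emp1 (0.996), for Ogn Igfbp3 (0.997) and Adh1 (0.996), and for Kera Cyp7b1 (0.997) and Itm2b (0.996). Fmod was closest to Igfbp7 (0.996) and Myo1c (0.996), Bgn to C1qtnf1 (0.994) and Anxa1 (0.990), and Lum to Fam155a (0.994) and Inhba (0.992). The highest values were lower for Prelp, with Ndel1 (0.986) and Scamp2 (0.984), and for Omd, with Sppl2b (0.989) and Comp (0.985), the gene of a cartilage and tendon matrix protein. Among the members themselves r ranged between 0.706 for Lum with Prelp and 0.986 for Kera with Ogn.

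The remaining family members and related genes were mostly dim. Of 9 listed, 7 had a probe set and 3 were tested, and all 3 were called higher at E14.5 against E11.5, none at E12.5 against E11.5 and 1 at E14.5 against E12.5. Over all tested genes the shares were 22.9%, 3.11% and 12.6%. The median change of the 7 with a probe set was 1.25 at E14.5 against E11.5. Epyc, the cartilage proteoglycan gene next to Kera, had signals of 3712, 463 and 489 at E14.5 and of 88.1, 58.2 and 133 at E11.5, a change of 3.42 ± 0.69 (adjusted p = 0.0038), with E14.5 A again far above B and C. Without that array it was 2.44 (adjusted p = 5.9e-04). Podn, which encodes podocan, had signals of 300.3, 269 and 283 at E14.5 and of 125, 149 and 129 at E11.5, a rise of 1.08 ± 0.18 (adjusted p = 0.0012) with no overlap. Chadl rose by 2.02 ± 0.65 (adjusted p = 0.0322), a call that was lost with no filter (adjusted p = 0.1050) and when E11.5 B (0.0872) or either of the E14.5 arrays A (0.1018) and B (0.0513) was left out. Ecm2, the neighbour of Aspn, and Optc, the neighbour of Prelp, were not tested, with signals up to 60.9 and 95.7.

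Genes that build the sugar chains and modify the proteins had smaller median changes than the 9 members, whose median was 4.0 at E14.5 against E11.5. The members were chosen with earlier results known, and the other family and related genes had a median of 1.25. Of 21 genes of the linker and of chondroitin and dermatan sulfate synthesis, 18 were tested, and 11 were called higher and 0 lower at E14.5 against E11.5. Over all tested genes, 22.9% were called higher and 17.7% lower there. The median change of those with a probe set was 0.66. Csgalnact1, whose enzyme starts the chondroitin chain, had signals of 1638, 1425 and 1589 at E14.5 and of 84.0, 82.9 and 109 at E11.5. Its rise of 4.09 ± 0.21 (adjusted p = 1.9e-06) was followed by that of Chsy3, a chondroitin synthase gene, with 3.92 ± 0.32 (adjusted p = 1.9e-05), which was 2.36 with the floor at the median signal and 2.47 with the mean of its probe sets. Chsy3 passed the filter through E12.5 and E14.5 arrays alone, so a rise was built into its being tested. Chst12, a sulfotransferase gene, passed the filter through its E14.5 arrays alone, so that a rise was built into its being tested. Its change of 1.57 ± 0.46 (adjusted p = 0.0224) is counted among the 11. It was 0.21 with no call (adjusted p = 0.2448) with the floor at the median signal and lost its call when B or C of E11.5 was left out (adjusted p = 0.0807 and 0.0550). At E12.5 against E11.5, 2 of the list were called higher and 0 lower, beside 3.11% of all genes called higher and 0.441% called lower. At E14.5 against E12.5 it was 7 higher and 0 lower, beside 12.6% of all genes called higher and 9.32% called lower.

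Of 10 genes of keratan sulfate synthesis and tyrosine sulfation, 9 were tested and 7 were called higher at E14.5 against E11.5, beside 22.9% of all tested genes. The median change was 0.88 over those with a probe set. With arrays centred on their medians, which lowered the change of Dcn to 4.98, 4 of the list were called. Chst5, a sulfotransferase gene of keratan sulfate, had signals of 379.8, 295 and 309 at E14.5 and of 45.1, 11.8 and 56.9 at E11.5, a rise of 3.07 ± 0.37 (adjusted p = 2.3e-04) that was 1.85 with the floor at the median signal. It passed the filter through E12.5 and E14.5 arrays alone, so a rise was built into its being tested. Chst2 rose by 1.44 ± 0.16 (adjusted p = 1.4e-04) and Chst1 by 1.07 ± 0.18 (adjusted p = 0.0013). None of the list was called at E12.5 against E11.5 and 4 were called higher at E14.5 against E12.5, beside 3.11% and 12.6% of all genes called higher.

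The collagens that SLRPs bind were also higher at the later stages. All 10 of the listed collagen genes were called higher at E14.5 against E11.5, with a median of 3.10, 5 were called higher at E12.5 against E11.5 and 10 at E14.5 against E12.5. The shares of all tested genes called higher were 22.9%, 3.11% and 12.6% in the same order. Col14a1, a collagen found on fibril surfaces, had signals of 5919, 4279 and 4498 at E14.5 and of 144, 90.9 and 189 at E11.5, a rise of 5.16 ± 0.26 (adjusted p = 1.7e-06) that was 3.84 with the mean of its probe sets. Col6a1 rose by 4.20 ± 0.22 (adjusted p = 1.8e-06) and Col6a3 by 3.92 ± 0.23 (adjusted p = 3.5e-06), both chains of the collagen VI that decorin and biglycan bind.

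Of 15 growth factor and receptor genes linked to SLRPs, 11 were tested, with 7 called higher and 1 lower at E14.5 against E11.5. Over all tested genes, 22.9% were called higher and 17.7% lower there. At E12.5 against E11.5 it was 2 higher and 1 lower, beside 3.11% and 0.441% of all genes. At E14.5 against E12.5 it was 5 higher and 1 lower, beside 12.6% and 9.32%. Egfr, a receptor that decorin binds, had signals of 1692, 2371 and 2446 at E14.5 and of 245, 298 and 479 at E11.5, a rise of 2.71 ± 0.32 (adjusted p = 1.8e-04) that was 0.82 and not called (adjusted p = 0.1664) with its lowest probe set. With each gene's lowest probe set, 3 of the list were called higher. Tlr2, a receptor for biglycan, rose by 2.04 ± 0.34 (adjusted p = 0.0013), or 1.38 with the floor at the median signal, and Kdr by 1.83 ± 0.59 (adjusted p = 0.0322), which was not called without E11.5 A or any 1 of the E14.5 arrays (adjusted p = 0.0560 to 0.0796). Kdr is also a marker of endothelium, whose summed markers were 891 to 1350.4 at E14.5 and 192 to 443 at E11.5, and their part in its rise was not tested. The gene called lower, named after its values were seen, was Met, another receptor that decorin binds, with signals of 316, 309 and 325 at E14.5 and of 722, 753 and 618 at E11.5, a log2 change of -1.14 ± 0.14 (adjusted p = 2.3e-04).

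The last list held 10 genes of matrix proteases, counting Pcolce, which encodes an enhancer of a procollagen protease and not a protease. Of these, 7 were tested and 6, Pcolce among them, were called higher at E14.5 against E11.5, beside 22.9% of all tested genes. It was 1 at E12.5 against E11.5 and 3 at E14.5 against E12.5, beside 3.11% and 12.6%, and none was called lower. Adamts5, an aggrecanase gene, had signals of 1504, 1338 and 1635 at E14.5 and of 252, 240.4 and 244 at E11.5, a rise of 2.60 ± 0.14 (adjusted p = 1.9e-06) that was 1.77 with its lowest probe set. Tll1, of the protease family that trims procollagens and pro-biglycan, rose by 2.00 ± 0.47 (adjusted p = 0.0077), or 1.24 with the floor at the median signal, and Adamts4 by 1.62 ± 0.25 (adjusted p = 9.5e-04). Tll1 passed the filter through E12.5 and E14.5 arrays alone, so a rise was built into its being tested.

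**Figure D4:**
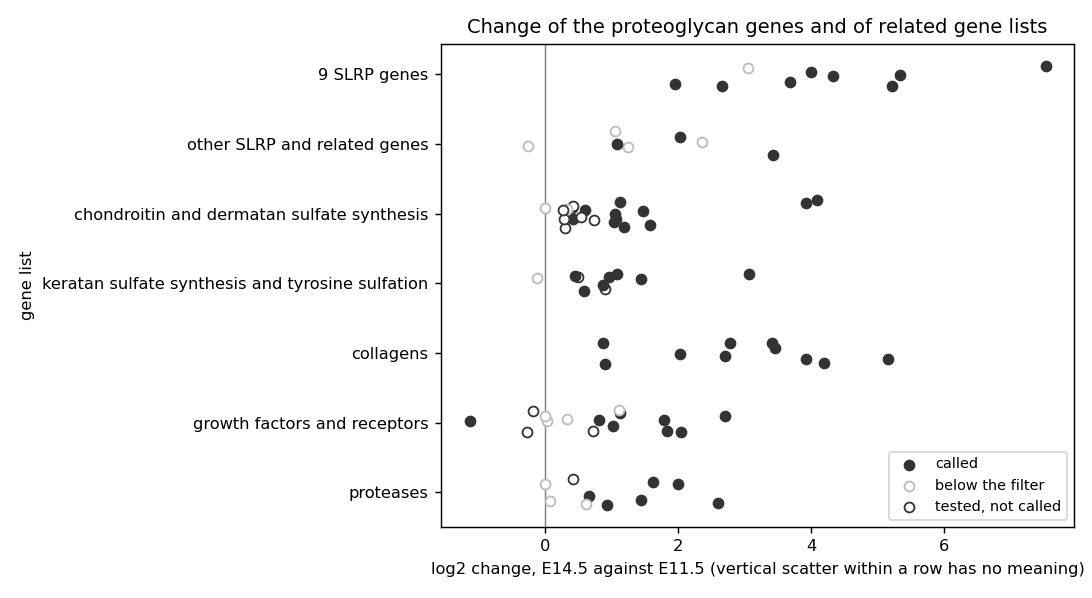
Log2 change at E14.5 against E11.5 of each gene with a probe set, in the 9 genes described here and in 6 lists of related genes. Filled points are called at an adjusted p under 0.05, open black points were tested and not called, and grey points lay below the filter. The 9 genes span 1.95 to 7.53, the collagens are all above 0, and the synthesis lists cluster near 1 with Csgalnact1, Chsy3 and Chst5 beyond them.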

How the data were processed

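GFP-positive forelimb cells of 3 embryonic stages were profiled on 9 arrays. Per the submitters' processing notes, the deposited intensity of each probe set is a MAS5 signal from Affymetrix Expression Console 1.1, on a linear scale. The mean of each array's signals without the lowest and highest 2% was 500, so no further normalization was made. In A, B and C, median signals were 68.75, 79.6 and 106.3 at E11.5 and 69.54, 94.49 and 105.8 at E12.5. At E14.5 they were 81.55, 91.1 and 118.5, so they rose from A to C at each stage. No arrays were duplicates. Precision is limited by having 3 arrays a stage.

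Of 45101 probe sets, 64 were controls, 34945 had 1 symbol, 932 had several and 9160 were not listed in the platform annotation. Symbols were checked through gene identifiers against RefSeq. Probe sets ending in _x_at, which can bind related sequences, represented a gene only where it had no other. A floor at the 25th percentile of signals (22.7) was applied, followed by log2 transformation, and genes over the median (90.6) in at least 3 arrays were tested with limma 3.58.1 in R 4.3.3, in 1 fit of all 9 arrays (6 residual degrees of freedom, two-sided contrasts). The fits were tested on simulated data. Means are given with the SD of signals before the floor. Intervals for the order of members come from a linear model of the log2 ratio of 2 genes per array.

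The members and gene lists were chosen with earlier results of these data known. All members are named, as are up to 3 called genes per list with the largest absolute change at E14.5 against E11.5, the 2 genes most like each member, and marker genes. The labels do not say what the letters A, B and C stand for. After removal of stage means, same-letter arrays correlated across genes at 0.313, -0.00516 and 0.238 between E14.5 and E11.5, at 0.520, 0.133 and 0.332 between E12.5 and E11.5, and at 0.310, 0.121 and 0.289 between E14.5 and E12.5, in letter order. Every letter was over 0.1 in both comparisons with E12.5, which fits paired arrays there, but B was not between E14.5 and E11.5. The reported fit has no block, and the value with a replicate block by letter is given beside a result where it changes a call. The other alternatives changed the floor, filter, probe set rule, scaling, weights and prior, or left out arrays.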

Additional observations from a re-analysis of the deposited data

How the results depend on the processing

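Of 482 changes of members under 21 alternatives, 458 kept their direction and their side of the threshold, 18 lost a call, 6 gained one and 0 reversed. Part of this was fixed in advance. Leaving out an array of a stage outside the comparison does not alter a log2 change, nor does the replicate block or the prior. The probe set rules cannot alter those of Lum and Kera, which have 1 probe set each. The count of members called higher at E12.5 against E11.5 was 6, but 3 with no filter, and 4 to 6 when 1 array was left out. The count called at E14.5 against E11.5 stayed at 8 without any 1 array, and that at E14.5 against E12.5 was 7 to 8. With the floor at the median signal, 1 member differed in rate per day in place of 0. The lost calls were those of Fmod, Lum, Kera, Dcn, Ogn and Aspn at E12.5 against E11.5 and of Omd at E14.5 against E11.5. Fmod also lost its call with the lowest probe set of each gene (adjusted p = 0.0853). The cause was not tested. Prelp gained a call at E14.5 against E12.5 with array weights (adjusted p = 0.0392), the floor at the median signal (0.0425), a trended and robust prior (0.0380), the replicate block (0.0391), and without E14.5 A (0.0203) or E14.5 C (0.0257). With the array letters as a replicate block, 8 of 8, 6 of 8 and 8 of 8 members were called at E14.5 against E11.5, E12.5 against E11.5 and E14.5 against E12.5, and no other member call changed. Averaging the probe sets of a gene left Prelp and Omd below the filter. Changes against stages at the floor, for Aspn and Omd at E11.5, depend on that floor.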
